A study of Rattus norvegicus with 24 samples.

Results

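Dolutegravir (DTG), an antiretroviral drug that blocks the HIV integrase, was compared with its vehicle dimethyl sulfoxide (DMSO) in proliferating oligodendrocyte precursor cells (OPCs). The libraries were chosen by their labels as the 4 DTG-treated and the 4 DMSO-treated OPC libraries, 8 of the 24 libraries in the series. Each DTG library was paired with the DMSO library of the same replicate number, which shares the culture date and letter that begin the library name. OPCs were shaken off mixed glial cultures from the cortices of Sprague Dawley rat pups, and replicates were cultures from independent litters. Cells were kept for 24 h in proliferation medium, a neurobasal and B-27 medium with basic fibroblast growth factor, platelet-derived growth factor AA and neurotrophin-3. One group received 8 µM DTG and the other 0.04% DMSO, and neither group carried a transgene or other genetic change. The other libraries came from untreated OPCs and from oligodendrocytes (OLs), which were kept for a further 72 h in differentiation medium. OLs treated with 8 µM DTG or with DMSO received it during both the 24 h of proliferation and these 72 h. In such bulk libraries, fewer cells of a type and less RNA per cell cannot be told apart.

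OPCs are the dividing glial cells that give rise to the myelinating cells of the brain, and they are recognised by the platelet-derived growth factor receptor Pdgfra and the proteoglycan Cspg4. When a cell is short of amino acids or its mitochondria or endoplasmic reticulum are disturbed, kinases of the integrated stress response (ISR) phosphorylate the initiation factor eIF2, which lowers general translation and favours that of the transcription factor ATF4. ATF4 in turn switches on genes for amino acid supply, together with feedback genes such as Trib3 and Chac1. OPCs that keep dividing also depend on the replication genes controlled by E2F factors, and these 2 programmes are shown here first through promoters of genes described below. The mitochondrial chromosome encodes subunits of the respiratory chain and of the ATP synthase as well as the ribosomal and transfer RNAs needed to translate them.

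The promoters of Trib3 and Chac1 are shown because both genes are textbook ATF4 targets. Those of Mcm7 and Mcm5 are shown because these helicase subunits were among the genes lower with DTG and held E2F letters. Mcm2 and Mcm3, also lower with DTG, were not among the genes found to hold these letters. Each run is the 250 bases before the annotated start in RefSeq (GRCr8 assembly), 5′ to 3′ on the strand of the gene. Trib3 lay at chr3:161275534-161275783 on the minus strand, Chac1 at chr3:126795881-126796130 on the plus strand, Mcm7 at chr12:22163179-22163428 on the minus strand and Mcm5 at chr19:13488563-13488812 on the plus strand. Capitals mark matches, on either strand, to TGATGNAA (the C/EBP-ATF composite letters bound by ATF4) in Trib3 and Chac1, and to TTTGGCGC or TTTCCCGC (letters of E2F sites) in Mcm7 and Mcm5.
Trib3: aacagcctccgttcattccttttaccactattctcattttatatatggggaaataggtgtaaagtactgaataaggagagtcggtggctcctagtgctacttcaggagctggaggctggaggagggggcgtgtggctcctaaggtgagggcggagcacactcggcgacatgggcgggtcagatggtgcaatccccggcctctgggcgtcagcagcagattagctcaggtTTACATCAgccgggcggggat
Chac1: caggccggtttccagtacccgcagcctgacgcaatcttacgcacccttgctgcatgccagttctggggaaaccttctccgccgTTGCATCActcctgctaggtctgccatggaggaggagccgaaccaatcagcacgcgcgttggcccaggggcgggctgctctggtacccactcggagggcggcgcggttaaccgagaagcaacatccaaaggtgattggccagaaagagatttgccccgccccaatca
Mcm7: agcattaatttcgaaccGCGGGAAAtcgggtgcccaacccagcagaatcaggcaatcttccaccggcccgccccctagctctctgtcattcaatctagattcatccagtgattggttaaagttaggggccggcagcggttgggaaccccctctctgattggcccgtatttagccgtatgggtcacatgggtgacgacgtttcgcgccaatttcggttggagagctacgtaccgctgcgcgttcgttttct
Mcm5: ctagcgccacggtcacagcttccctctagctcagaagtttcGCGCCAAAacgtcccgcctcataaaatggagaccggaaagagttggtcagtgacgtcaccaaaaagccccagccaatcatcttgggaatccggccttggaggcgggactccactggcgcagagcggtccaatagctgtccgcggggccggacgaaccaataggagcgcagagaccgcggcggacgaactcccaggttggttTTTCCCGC

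The ATF4 letters began 21 bases before the start of Trib3 and 167 bases before that of Chac1. The E2F letters began 233 bases before the start of Mcm7 and, in Mcm5, 209 and 8 bases before it. Windows of the same length held the ATF4 letters in 1139 of 33469 RefSeq rat promoters (3.4%), and the E2F letters in 404 (1.21%). Among the ISR feedback genes listed here, 3 of the 9 with a promoter entry held the ATF4 letters, as did 4 of 16 amino acid genes and 1 of 7 ISR transcription factor genes. The 4 amino acid genes were Aars1, Nars1, Pck2 and Slc7a1, so Asns and Cth, described below, were not among them. The E2F letters were in 6 of 18 origin and helicase genes (Gins1, Gins3, Mcm5, Mcm6, Mcm7 and Mcm8). A match describes the letters only.

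The OPC libraries held between 13268647 and 17322475 counts assigned to genes. Over the 500 genes of highest variance, the first principal component took 53.4% of the variance and did not separate DTG from DMSO. The exact permutation p was 0.514 (two-sided, 70 splits that ignored the pairing, smallest possible p 0.0286). Replicate 2 stood apart. The deviations of same-numbered DTG and DMSO libraries from their group means correlated at 0.73, −0.08, 0.59 and 0.82 for replicates 1 to 4, and the DTG library of replicate 2 correlated at 0.77 with the DMSO library of replicate 3, a culture of the same date with another letter. The SD over genes of the DTG to DMSO log2 ratio was 0.783 in replicate 2, against 0.306, 0.296 and 0.454 in replicates 1, 3 and 4. The fold change was above 2-fold in either direction for 2346 genes in replicate 2 and for 183 to 449 in the others, so values above 0.1 in size that moved by over 1.5 times without this litter are given below with and without it.

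**Figure D1:**
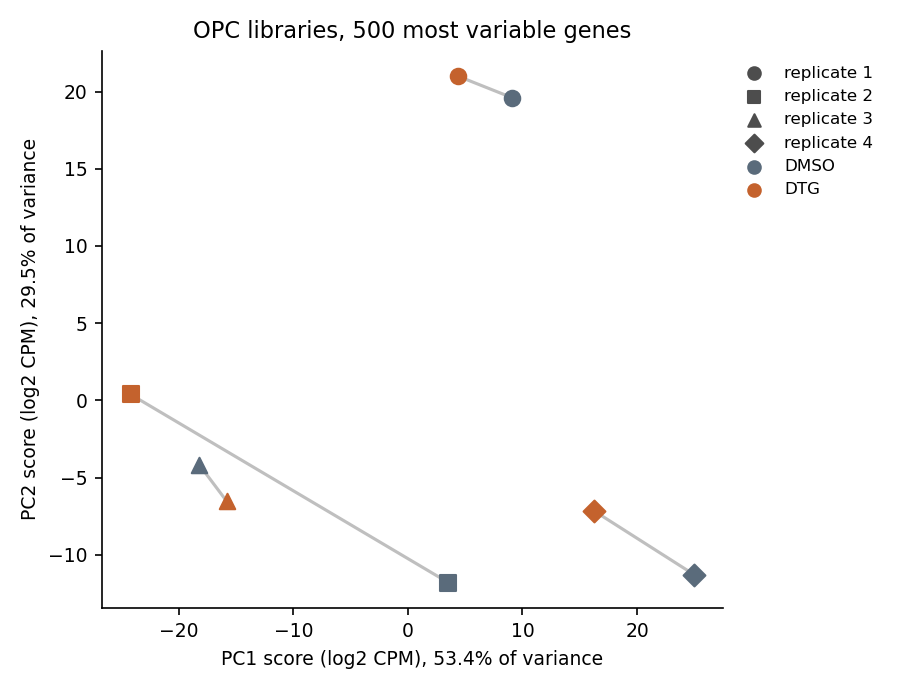
Principal component scores of the 8 OPC libraries from log2 normalised read counts (CPM, each library scaled to the same total) of the 500 genes of highest variance, component 1 across and component 2 up, with a line joining the DTG and DMSO libraries of each replicate. Replicates 1, 3 and 4 sit as close pairs, whereas the libraries of replicate 2 lie far apart on component 1 (3.52 with DMSO and −24.2 with DTG).

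At the level of single genes, no transcript passed the threshold after 24 h of DTG. Of 13270 genes tested with edgeR's quasi-likelihood test and the litter as a block, 0 (0.0%) had an adjusted p under 0.05 with a fold change over 2-fold, and the smallest adjusted p was 0.503. At an unadjusted p under 0.05 there were 889 genes, 477 higher with DTG (3.59%) and 412 lower (3.1%). These shares of all genes are the background for the counts of list members given below. DESeq2 with the same block also called 0 genes, although 5 had an adjusted p under 0.05 at smaller folds, namely Mt-nd2, Mt-atp8, Mt-nd1 and 2 genes without a symbol, among them ENSRNOG00000013552. The genes below are therefore described as higher or lower in normalised read counts (CPM, each library scaled to the same total), with the SE and 95% interval of the edgeR fit. Each named gene had an adjusted p of at least 0.503, and none is called changed. Some genes, such as Mt-nd2, Trib3, Txnip, Tk1, Spc24 and Cenpm, were in a ranking by unadjusted p. It required 1 direction in 4 of 4 pairs, so that shared direction is not a result for them. Without the replicate block, 66 genes had an unadjusted p under 0.05.

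The fit set limits on the size of the response. For 11014 genes (83.0%) the 95% interval of the log2 fold change lay within 1 unit of 0, and the median distance from the estimate to either bound was 0.39. Among 9169 genes of at least 10 CPM this share was 92.8%, and among 631 genes under 1 CPM it was 19.0%. These intervals depend on the scaling: when library sizes were taken from the ERCC spike-in RNA, the all-gene median moved from 0.00 to 0.45 (log2), and 3653 genes had such an interval. ERCC reads made up 1.06% to 3.45% of the DMSO libraries and 1.09% to 1.81% of the DTG libraries, lower with DTG in 3 of 4 pairs (exact permutation p = 0.314). Spike-ins went into total RNA that had been brought to 1 concentration, and their share was not tested as a measure of RNA per cell.

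Transcripts of the mitochondrial chromosome led the named genes higher with DTG. The 7 named mitochondrial genes tested were all higher at an unadjusted p under 0.05, with a median log2 fold change of 0.75 (0.51 without replicate 2), against 0.00 over all genes. Of these 7, 6 were also called in OLs, and symbols were known mainly for genes that differ between the groups of the series, so the whole chromosome is also given. Of 15 mitochondrial features of at least 200 bases, 12 were higher and 3 lower, 9 higher and 1 lower at an unadjusted p under 0.05, with a median of 0.47. Without replicate 2, 12 of the 15 were still higher, with a median of 0.41.

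Mt-nd2, a subunit of respiratory complex I (MT:3904-4942 in Rnor_6.0), was measured at 943, 1390, 1860 and 650 CPM in DMSO replicates 1 to 4 and at 1620, 4050, 2660 and 1450 CPM with DTG. The groups overlapped, and the log2 fold change was 1.00 (SE 0.18, 95% interval 0.59 to 1.41). Mt-nd1, another complex I subunit (MT:2740-3694), was measured at 2300, 5800, 3630 and 2190 CPM with DMSO and at 4220, 6360, 7460 and 5980 CPM with DTG. The DMSO library of replicate 2 was above the DTG library of replicate 1, and the log2 fold change was 0.88 (SE 0.21, 95% interval 0.40 to 1.35). Without replicate 2 it was 1.12, with an adjusted p of 0.00252 in edgeR, which was the 1 call made when that litter was left out. Mt-atp8, a small subunit of the ATP synthase (MT:7758-7961), was measured at 335, 440, 576 and 317 CPM with DMSO and at 520, 1100, 760 and 578 CPM with DTG, a log2 fold change of 0.81 (SE 0.16, 95% interval 0.44 to 1.17). Only the DTG library of replicate 1 was below the highest DMSO library. Mt-atp8 shares bases 7919 to 7961 with the next feature and Mt-nd4l shares bases 10160 to 10166 with its neighbour, and the strand setting of the counting is not given in the sources used here, so reads in these stretches cannot be assigned to a gene. Nuclear copies of mitochondrial sequence add a further uncertainty to all of them.

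The remaining named genes had smaller differences. Mt-nd4l, also of complex I, had a log2 fold change of 0.75 (95% interval 0.26 to 1.24), Mt-co3 of complex IV 0.61 (95% interval 0.18 to 1.04), Mt-nd5 0.47 (95% interval 0.06 to 0.88) and Mt-nd3 0.38 (95% interval 0.12 to 0.65). Not every transcript of the chromosome followed. The feature at MT:5323-6867 was measured at 11200 ± 3290 CPM with DMSO and 12000 ± 3240 with DTG (SD, n = 4), with a log2 fold change of 0.10 (0.04 without replicate 2) and an interval from −0.26 to 0.46. The feature at MT:68-1025 was lower, at 302 ± 38.2 CPM with DMSO and 224 ± 40.4 with DTG (SD, n = 4), a log2 fold change of −0.44 (95% interval −0.78 to −0.10) that became 0.02 with ERCC library sizes. Summed with the feature at MT:1094-2664, it was lower in 4 of 4 pairs (1046 ± 152.8 CPM against 855.6 ± 213.6 CPM, SD, n = 4, exact permutation p = 0.229). The 13 other long features summed to 31790 ± 10670 CPM with DMSO and 41320 ± 11630 CPM with DTG (SD, n = 4), higher in 4 of 4 pairs (exact permutation p = 0.229).

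Over the whole chromosome, the mitochondrial share of gene counts was 2.56%, 3.94%, 4.52% and 2.01% with DMSO and 3.12%, 5.72%, 4.83% and 3.53% with DTG. It was higher in 4 of 4 pairs, yet the litters spread more widely than the drug difference (exact permutation p = 0.257). This test ignored the pairing, so it does not measure the difference within litters. Among the 10 short features tested, 5 were higher and 5 lower, with a median log2 fold change of −0.02 (−0.13 without replicate 2). Libraries were poly(A)-selected, so these counts reach only polyadenylated copies.

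**Figure D2:**
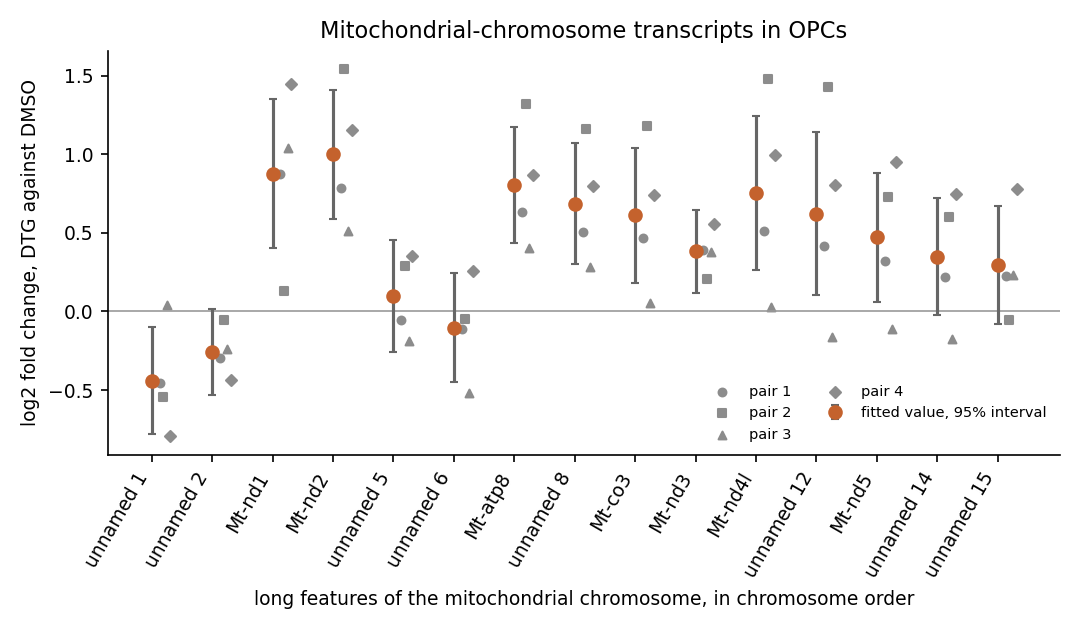
Log2 fold change (DTG minus DMSO, OPCs) of the 15 mitochondrial features of at least 200 bases in chromosome order, those without a symbol numbered by position, with 95% intervals and the values of the 4 pairs. The first pair of features lies below 0, whereas Mt-nd2, Mt-nd1 and Mt-atp8 lie highest, at 1.00, 0.88 and 0.81.

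Genes of the integrated stress response were higher in part, at low levels. Trib3, a pseudokinase that restrains ATF4 and Akt (chromosome 3, 147813473 to 147819571, Rnor_6.0), had the largest fold among the named genes of the ISR lists. It was measured at 0.429, 0.534, 0.443 and 1.28 CPM with DMSO, from 6 to 16 counts, and at 2.24, 1.30, 0.878 and 2.15 CPM with DTG, from 14 to 39 counts. Its log2 fold change was 1.30 (SE 0.36, 95% interval 0.49 to 2.12) and 1.31 without replicate 2. The DMSO library of replicate 4 lay above the DTG library of replicate 3, so the groups overlapped.

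The other ISR feedback genes were closer to the vehicle. Of 6 tested, 5 were higher and 1 lower, 1 at an unadjusted p under 0.05 (Trib3), with a median log2 fold change of 0.29 (0.50 without replicate 2 and 0.16 without replicate 1). Of the 10 genes in this list, the 6 with a symbol were all called in OLs, so the members seen here are in effect those that respond to the drug in OLs. Chac1, which degrades glutathione, was measured at 6.80, 9.84, 4.54 and 12.3 CPM with DMSO and at 16.8, 7.64, 7.90 and 14.2 CPM with DTG. It was lower in replicate 2 and higher in the other 3 pairs, with a log2 fold change of 0.49 (SE 0.27, 95% interval −0.13 to 1.10). Without replicate 2 the value was 0.76, and without replicate 1 it was 0.21. Gdf15, a secreted stress cytokine, was measured at 0.859, 5.64, 4.38 and 4.49 CPM with DMSO and at 0.863, 4.91, 5.21 and 5.49 CPM with DTG. Its log2 fold change was 0.10 with an interval from −0.39 to 0.58 (0.23 without replicate 2), and replicate 1 was low in both groups. Eif4ebp1, a repressor of cap-dependent translation, had a log2 fold change of −0.01 (95% interval −0.34 to 0.32), at 46.0 ± 13.9 CPM with DMSO and 46.0 ± 16.6 with DTG (SD, n = 4).

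The transcription factors themselves differed little. Atf4 was measured at 177, 169, 173 and 128 CPM with DMSO and at 212, 183, 197 and 170 CPM with DTG, higher in 4 of 4 pairs with a log2 fold change of 0.24 (SE 0.11, 95% interval −0.02 to 0.50). Its groups overlapped through replicate 4. Of the 6 ISR transcription factors tested, 3 were higher and 3 lower, none at an unadjusted p under 0.05, and the median was 0.03. Cebpb was the lowest of them, at a log2 fold change of −0.30 with all 4 replicates. Of these 6 genes, 5 were called in OLs. Atf3, induced by many stresses, was at 0.731 ± 0.278 CPM with DMSO and 1.05 ± 0.368 with DTG (SD, n = 4).

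Genes of amino acid supply were on the higher side. Of 10 tested, 8 were higher and 2 lower, 2 higher at an unadjusted p under 0.05 (Asns and Cth), with a median log2 fold change of 0.23 that was above 0 in each of the 4 pairs. Here too the 10 members with a symbol, of 20 in the list, were all called in OLs. Asns, asparagine synthetase, was measured at 55.7, 48.1, 38.1 and 46.7 CPM with DMSO and at 80.4, 48.2, 50.0 and 58.9 CPM with DTG, a log2 fold change of 0.32 (SE 0.13, 95% interval 0.01 to 0.62). The libraries of replicate 2 were level in Asns, whereas the other pairs were higher with DTG. Cth, which makes cysteine from cystathionine, had a log2 fold change of 0.58 (SE 0.21, 95% interval 0.10 to 1.06). Slc7a11, the cystine importer, had one of 0.91 (SE 0.43, 95% interval −0.07 to 1.88) that rested on replicate 2 and was 0.37 without it. Mthfd2, a mitochondrial folate enzyme, was at 0.20 (95% interval −0.07 to 0.48). Some genes stand in more than one list, such as Slc7a11, which is also an NRF2 target.

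**Figure D3:**
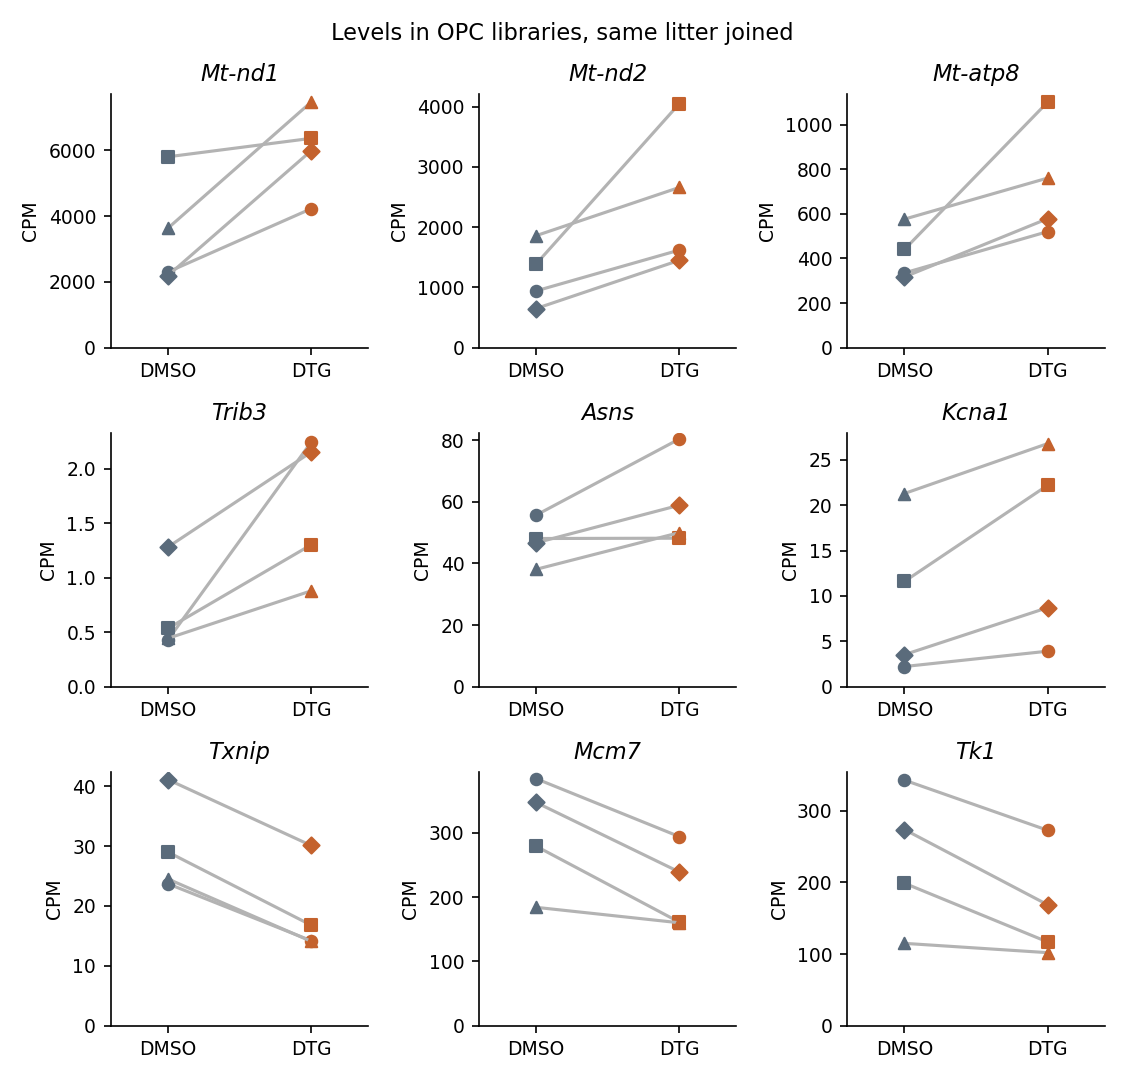
CPM of individual genes in each OPC library, DMSO against DTG, on a separate axis per gene, with a line joining the libraries of each replicate (circle, square, triangle and diamond for replicates 1 to 4). In the Trib3 panel all lines slope up towards DTG, from 0.429 to 1.28 CPM with DMSO to 0.878 to 2.24 CPM, and in the Txnip panel all lines slope down. Both genes are in the ranking, which required 1 direction in 4 of 4 pairs.

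Txnip had the smallest unadjusted p among the named genes that were lower with DTG. Txnip encodes a thioredoxin-binding protein that restrains glucose uptake and follows cellular glucose (chromosome 2, 198683159 to 198686974, Rnor_6.0). It was measured at 23.7, 29.0, 24.5 and 41.1 CPM with DMSO and at 14.2, 16.8, 14.1 and 30.1 CPM with DTG. Only the DTG library of replicate 4 exceeded any DMSO library. The log2 fold change was −0.69 (SE 0.15, 95% interval −1.02 to −0.36), −0.66 without replicate 2 and −0.24 with ERCC library sizes. Pfkl, a phosphofructokinase of glycolysis, was at 83.8 ± 23.8 CPM with DMSO and 61.6 ± 12.8 with DTG (SD, n = 4), a log2 fold change of −0.42 (95% interval −0.77 to −0.07) that became −0.26 without replicate 2 and 0.03 with ERCC library sizes. Arrdc4, an arrestin related to Txnip, was at −0.39 (95% interval −0.84 to 0.06), and 0.06 with ERCC library sizes. Of the 4 glucose and hypoxia genes tested, 3 were lower, 2 at an unadjusted p under 0.05, with a median of −0.40.

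As a list, replication genes were on the lower side in each litter. Of 15 DNA replication genes tested, 12 were lower and 3 higher, 5 lower and 0 higher at an unadjusted p under 0.05, with a median log2 fold change of −0.24 that was below 0 in 4 of 4 pairs (−0.17 without replicate 2). With ERCC library sizes this median was 0.21, still below the 0.45 of all genes. The 5 genes were Mcm2, Mcm3, Mcm5, Mcm6 and Mcm7, subunits of the ring helicase that opens DNA at origins. Mcm7 was measured at 384, 279, 184 and 347 CPM with DMSO and at 294, 161, 160 and 239 CPM with DTG. The log2 fold change was −0.48 (SE 0.13, 95% interval −0.77 to −0.18), and −0.03 with ERCC library sizes. The litters overlapped, with the DMSO library of replicate 3 below the DTG libraries of replicates 1 and 4.

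Mcm3 had a log2 fold change of −0.41 (SE 0.12, 95% interval −0.70 to −0.13) and Mcm5 one of −0.43 (SE 0.14, 95% interval −0.75 to −0.10), and both changed sign with ERCC library sizes, to 0.04 and 0.03. Mcm2 (−0.36, 95% interval −0.66 to −0.05) and Mcm6 (−0.27, 95% interval −0.53 to −0.01) likewise became 0.09 and 0.19 with ERCC library sizes, and Mcm2 was at −0.24 without replicate 2. The remaining subunit, Mcm4, was at 0.30 with an interval that held 0 (95% interval −0.15 to 0.75), so the 6 subunits did not share 1 direction. Tk1, the thymidine kinase of dividing cells, was measured at 343, 199, 115 and 274 CPM with DMSO and at 273, 117, 102 and 169 CPM with DTG. Its log2 fold change was −0.49 (SE 0.14, 95% interval −0.80 to −0.18), and −0.04 with ERCC library sizes. Dctpp1, which clears unwanted deoxycytidine triphosphates, was at −0.59 (95% interval −1.04 to −0.15), and Fen1, the flap endonuclease of lagging-strand synthesis, at −0.37 (95% interval −0.66 to −0.09).

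Wider families of the cell cycle had medians nearer 0. The 22 origin and helicase genes had a median log2 fold change of −0.04, with 5 lower at an unadjusted p under 0.05, and the 21 fork genes also −0.04, with 2 lower. The 10 deoxynucleotide genes had a median of −0.05, with 2 lower. The 15 mitosis genes had one of 0.03 (−0.13 without replicate 2), with 2 lower (the mitotic kinase gene Aurka and the survivin gene Birc5). Spc24 and Cenpm, of the kinetochore and the centromere, were named by the ranking as lower (log2 fold changes −0.51 and −0.48). Their family of 31 genes had a median of 0.13. That median became −0.10 without replicate 2, as did those of condensin and cohesin (20 genes, from 0.34 to −0.03) and the mitotic kinesins (12 genes, from 0.25 to −0.07). The 22 recombination and crosslink repair genes had a median of 0.10 (0.00 without replicate 2), with 0 genes in either direction at an unadjusted p under 0.05. Of the 9 histone genes tested, 8 were lower, 1 at an unadjusted p under 0.05 (H2afx, −0.45, and −0.29 without replicate 2), and the median was −0.36. Clustered members such as Hist1h3a are near-identical copies that counting may not tell apart. Libraries were poly(A)-selected, so only polyadenylated copies were counted.

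**Figure D4:**
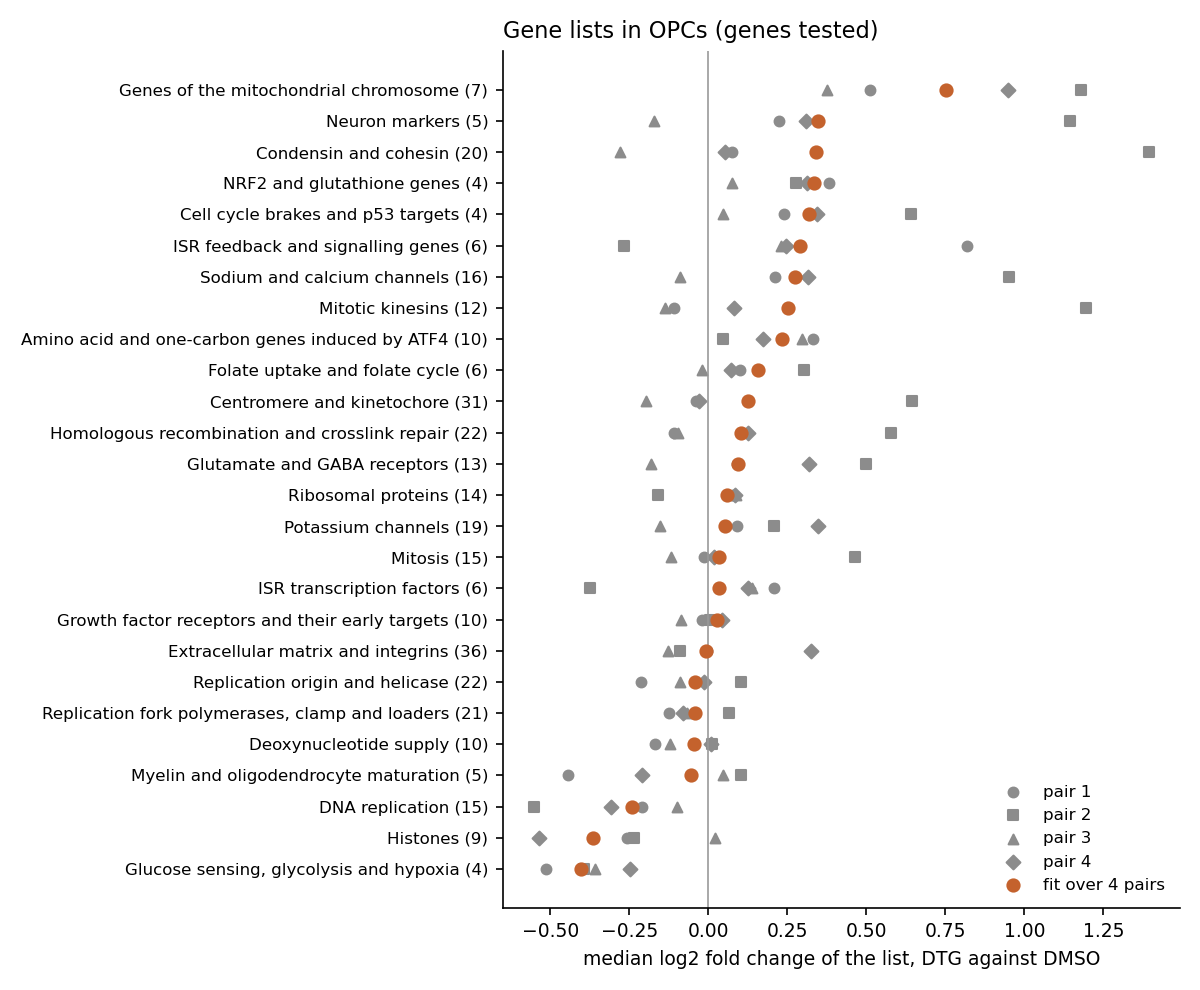
Log2 fold changes (DTG minus DMSO, OPCs) of gene lists, given as list medians, for lists with at least 4 genes tested, with grey marks for the medians of the 4 pairs and a coloured point for the fit. The mitochondrial genes lie furthest right (0.75), and the glucose, histone and DNA replication genes furthest left (−0.40, −0.36 and −0.24).

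Kcna1 and Kcna2 were among the remaining genes named by the ranking, and the channel families were drawn up after these genes had been seen. Kcna1, a voltage-gated potassium channel, was measured at 2.22, 11.6, 21.3 and 3.53 CPM with DMSO and at 3.91, 22.2, 26.8 and 8.71 CPM with DTG, a log2 fold change of 0.82 (SE 0.20, 95% interval 0.36 to 1.28). The litters spread over a wider range than the drug difference. Kcna2, its close relative, was measured at 20.5, 16.4, 30.6 and 12.3 CPM with DMSO and at 26.5, 36.6, 37.8 and 21.1 CPM with DTG, a log2 fold change of 0.65 (SE 0.18, 95% interval 0.24 to 1.06). Of 19 potassium channel genes tested, 4 were higher and 1 lower at an unadjusted p under 0.05, and the median was 0.05. In 4 of 4 pairs, 3 of the 19 were higher, beside 7.71% of all genes. Genes seen before the family was drawn up, such as Kcna1, are in both counts, so neither count is a result about the family. Of 16 sodium and calcium channel genes, 14 were higher, 3 at an unadjusted p under 0.05 (Scn3a, Scn8a and Nalcn), and 3 in 4 of 4 pairs, with a median of 0.27 that was 0.05 without replicate 2. The 13 glutamate and GABA receptor genes had a median of 0.09 (0.02 without replicate 2).

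Myof, a membrane repair protein of the ferlin family, was measured at 10.2, 27.0, 59.3 and 13.1 CPM with DMSO and at 14.9, 63.1, 75.4 and 28.5 CPM with DTG. Its log2 fold change was 0.81 (SE 0.18, 95% interval 0.40 to 1.22), with overlapping groups. RF00218, a small RNA of 104 bases, was the only gene named by the ranking whose groups did not overlap, at 2.58, 1.68, 2.22 and 2.16 CPM with DMSO and 4.78, 5.41, 3.70 and 3.34 CPM with DTG (log2 fold change 0.98, SE 0.25, 95% interval 0.41 to 1.55). Such separation was seen for 28 genes above (0.211%) and 40 below (0.301%) of all genes tested, and 1 direction in 4 of 4 pairs for 1023 higher (7.71%) and 1279 lower (9.64%). Slc20a1, a phosphate importer, was higher (log2 fold change 0.46, 95% interval 0.15 to 0.77). On the lower side, Olfml3, a secreted olfactomedin-like protein, was at −0.57 (95% interval −0.92 to −0.21), Nrgn, a calmodulin-binding protein, at −0.41 (95% interval −0.69 to −0.13, and 0.05 with ERCC library sizes), Tcf19 at −0.47 (95% interval −0.81 to −0.14) and the homeobox gene Gbx2 at −0.53 (95% interval −0.93 to −0.13). The smallest unadjusted p of all genes belonged to ENSRNOG00000060162, a gene of 107 bases without a symbol in the sources used here (chromosome 2, 188408326 to 188408432). It had 4, 2, 7 and 2 counts with DMSO and 25, 18, 22 and 15 with DTG, so its groups did not overlap, at 0.247 ± 0.112 and 1.22 ± 0.23 CPM (SD, n = 4). The log2 fold change was 2.26 (SE 0.38), from few reads. Libraries were poly(A)-selected, and whether the reads on this short gene and on RF00218 come from the small RNAs themselves was not tested. ENSRNOG00000013552 on chromosome 1, also unnamed, was at 180 ± 62.1 CPM with DMSO and 274 ± 91.6 with DTG (SD, n = 4, log2 fold change 0.61, SE 0.11).

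Several smaller lists were only partly named. The 4 NRF2 and glutathione genes tested had a median log2 fold change of 0.33, with Gclm, a subunit that makes glutathione, at 0.34 (95% interval 0.04 to 0.64, and 0.23 without replicate 2). The 4 cell cycle brake and p53 target genes had a median of 0.32 (0.21 without replicate 2), with Ccng1 and Eda2r higher at an unadjusted p under 0.05. The 6 folate genes had a median of 0.16 (0.01 without replicate 2), the 10 growth factor receptor and early target genes 0.03, the 36 extracellular matrix and integrin genes −0.01 and the 14 ribosomal protein genes 0.06. Of 3 endoplasmic reticulum genes, Edem1 was higher (0.31, 95% interval 0.01 to 0.62) and Sdf2l1 lower (−0.44, 95% interval −0.82 to −0.06, and 0.02 with ERCC library sizes). Of the single members named in other lists, Eif2s1, the phosphorylated subunit of eIF2, was at 0.29 (0.07 without replicate 2), Tiparp, a target of the aryl hydrocarbon receptor, at 0.52 (95% interval 0.05 to 0.99, and 0.30 without replicate 2) and the magnesium channel Trpm7 at 0.58 (−0.04 without replicate 2). Both nuclear genes of mitochondrial stress and biogenesis (median 0.28, and 0.12 without replicate 2) and 3 interferon genes (median 0.05, and −0.08 without replicate 2) had unadjusted p values above 0.05, and 0 cholesterol synthesis genes carried a name.

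The 2 named OPC markers, Pdgfra and Cspg4, were near the vehicle level. Pdgfra ranged from 363 to 878 CPM with DMSO and from 534 to 940 CPM with DTG, with a log2 fold change of 0.19 (SE 0.15, 95% interval −0.15 to 0.54, and 0.12 without replicate 2), and Cspg4 was at −0.09 (95% interval −0.42 to 0.24). The sums of these 2 of 19 identity markers ranged from 612 to 1230 CPM with DMSO and from 818 to 1160 CPM with DTG. Mbp, the myelin basic protein gene, was measured at 272, 342, 220 and 159 CPM with DMSO and at 200, 240, 227 and 118 CPM with DTG. Its log2 fold change was −0.34 (SE 0.13, 95% interval −0.63 to −0.04), lower in 3 of 4 pairs, and 0.12 with ERCC library sizes. The 5 maturation genes tested had a median of −0.06. For other cell types few markers carried a name. Cd68, 1 of 13 microglial markers, ranged from 1.04 to 2.66 CPM with DMSO and from 1.21 to 3.58 CPM with DTG. Sox9, 1 of 10 astrocyte markers, had a log2 fold change of −0.08, and Acta2, 1 of 9 fibroblast and vessel markers, −0.21. The 5 of 10 neuronal markers summed to between 218 and 471 CPM with DMSO and between 337 and 528 CPM with DTG, and their median log2 fold change was 0.35 (0.10 without replicate 2). The neuronal sum in replicate 2 was 218 CPM with DMSO and 528 CPM with DTG, and its part in the channel genes was not tested.

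Untreated OPCs of replicates 1, 2 and 4 gave a second background. Txnip was at 30.1 ± 6.52 CPM in untreated cells (SD, n = 3), 29.4 ± 7.99 with DMSO and 18.7 ± 7.60 with DTG (SD, n = 4), scaled over these 11 libraries together, and 1 of 3 pairs was above untreated cells with DTG. Trib3 was at 0.935 ± 0.506 CPM untreated, 0.668 ± 0.407 with DMSO and 1.63 ± 0.658 with DTG, and higher with DTG than in untreated cells in 3 of 3 pairs. With DMSO, Trib3 was above untreated cells in 0 of 3 pairs. Atf4 was at 162 ± 23.9 CPM untreated, 161 ± 22.8 with DMSO and 190 ± 17.9 with DTG, above untreated cells with DTG in 2 of 3 pairs. Mt-nd2 was at 765 ± 198 CPM untreated, 1200 ± 527 with DMSO and 2430 ± 1190 with DTG, so the vehicle group was itself above untreated cells in 3 of 3 pairs. Mcm7 was at 326 ± 86.7, 297 ± 87.2 and 212 ± 64.7 CPM in the same order, and Tk1 at 266 ± 110, 231 ± 97.5 and 164 ± 76.8 CPM. Both were lower with DTG than in untreated cells in 3 of 3 pairs.

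OLs of the same series gave a set of responding genes to look up in OPCs. With the same test, 168 of 12710 genes were called in OLs, 95 higher (0.747%) and 73 lower (0.574%), and 137 of these were tested in OPCs. The OPC and OL comparisons share no library, and since the set was chosen on OL values its larger size there is a matter of choice. Of the 88 genes higher in OLs, 63 were higher and 25 lower in OPCs, 15 higher and 0 lower at an unadjusted p under 0.05, and the median log2 fold change was 0.20 against 1.34 in OLs. Leaving out the mitochondrial features, 9 of 82 were higher at an unadjusted p under 0.05, with a median of 0.17. Of the 49 genes lower in OLs, 38 were lower and 11 higher in OPCs, 7 lower and 0 higher at an unadjusted p under 0.05, with a median of −0.21 against −1.32. Over all genes tested in OPCs, 50% were higher and 50% lower. At an unadjusted p under 0.05, 3.59% were higher and 3.1% lower. Without replicate 2, 70 of 88 and 36 of 49 had the OL direction. With ERCC library sizes the 2 medians became 0.65 and 0.29, beside 0.45 for all genes.

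**Figure D5:**
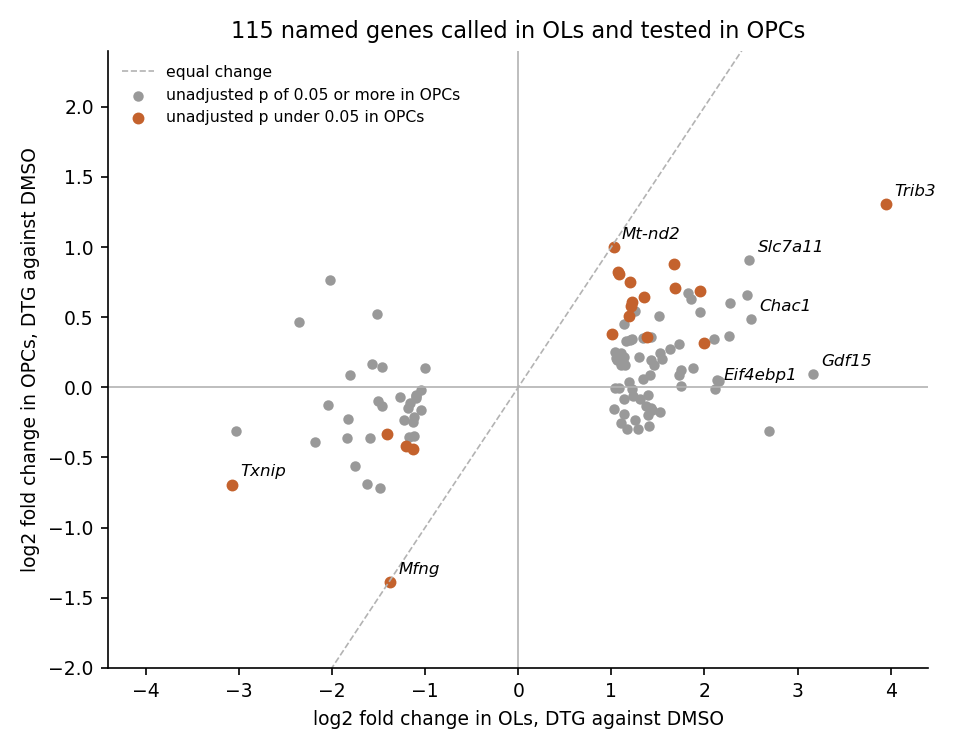
Log2 fold change with DTG in OPCs (up) against OLs (across) for the named genes called in OLs and tested in OPCs, with lines at 0, a dashed line of equal response and colour for an unadjusted p under 0.05 in OPCs. Most points lie nearer 0 on the OPC axis than the dashed line, with Mt-nd2 (1.00 in OPCs, 1.03 in OLs) close to the dashed line and Gdf15 (0.10 and 3.16) far below it.

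The difference between the stages was itself tested. OLs had received DTG or DMSO through 24 h of proliferation and 72 h of differentiation, whereas OPCs had received it for 24 h. Stage, medium and length of exposure therefore cannot be told apart. Of 13734 genes, 7 (0.051%) had a response that differed at an adjusted p under 0.05 in edgeR's interaction test, all named. These calls depended on the fit: there were 0 without the replicate block, 60 in DESeq2, 3 with ERCC library sizes, and 4, 3, 2 and 0 without replicates 1 to 4. Gdf15 (difference 3.10, SE 0.30, adjusted p = 0.000994) and Txnip (−2.35, SE 0.25, adjusted p = 0.00168) led them. Ifi27l2b, an interferon-induced gene (3.03), Eif4ebp1 (2.15) and Mthfd2 (1.38) responded more upward in OLs, and Arpc1b, an actin nucleation subunit (−1.17), and Gjc3, a glial gap junction protein (−1.89), more downward. Trib3 was at 1.30 in OPCs and 3.95 in OLs, a difference of 2.67 that did not pass (adjusted p = 0.119). For Atf4 the difference was 0.89 (adjusted p = 0.0726) and for Asns 1.71 (adjusted p = 0.0637).

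Other genes are given by their stage differences, none of which passed. Mt-nd2 differed by 0.05 (SE 0.22), Mt-nd1 by 0.82 (SE 0.27, adjusted p = 0.452), Mt-nd3 by 0.65 and Mt-co3 by 0.64. Kcna1 was at 0.82 in OPCs and 1.07 in OLs, and Kcna2 at 0.65 and 1.35. Mfng, which adds sugars to Notch receptors, was at −1.39 and −1.38, although in OPCs this rested on 0 to 17 counts with DTG and 6 to 31 with DMSO. Slc16a14, a transporter of the monocarboxylate family, was the other named gene whose OPC groups did not overlap (21.5 ± 1.25 CPM with DMSO and 27.5 ± 2.16 with DTG, SD, n = 4, log2 fold change 0.36, 95% interval 0.03 to 0.69).

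Genes of normal maturation were also looked up. Between untreated OPCs and untreated OLs, 1481 of 13110 genes were called higher in OLs (11.3%) and 1549 lower (11.8%). Of 1321 maturation genes tested under DTG in OPCs, 496 were higher and 825 lower, 41 (3.1%) and 58 (4.39%) at an unadjusted p under 0.05, with a median log2 fold change of −0.10 that was −0.02 without replicate 2. Of 1545 genes of the precursor stage, 824 were higher and 721 lower, 43 (2.78%) and 68 (4.4%) at an unadjusted p under 0.05, with a median of 0.03. Over all genes these shares were 3.59% higher and 3.1% lower, and 50% of genes were lower in OPCs with DTG, against 62.5% of the maturation genes. Without replicate 2, 728 of 1312 maturation genes were lower, beside 6809 of all 13224 genes. Of the 1545 precursor-stage genes, 728 were then higher and 817 lower, with a median of −0.01.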

How the data were processed

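RNA from 24 cultures (untreated, DMSO-treated or DTG-treated OPCs and OLs, 4 each) was sequenced after poly(A) selection. The authors deposited raw counts per gene, made with STAR 2.5.2b and featureCounts (Subread 1.5.2) on Rnor_6.0, per the submitters' processing notes. ERCC rows were dropped. Two-group fits used R 4.3.3 and edgeR 4.0.16 (TMM, filterByExpr, prior count 2, quasi-likelihood test, litter as block). A call needed a Benjamini-Hochberg adjusted p below 0.05 and more than 1 log2 unit in either direction. DESeq2 1.42.0, other filters and scalings, a fit without the block and leaving out each replicate were alternatives. CPM are counts scaled to the TMM-adjusted library total. Scripts were tested on simulated data. Exact permutation tests were two-sided and ignored the pairing, so differences between litters enter their p values.

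Same-numbered libraries were paired because their names share a culture date and letter and replicates are separate litters. Their deviations correlated at 0.73, −0.08, 0.59 and 0.82. The untreated replicate 3 libraries (30560 genes in place of 32883) were not used. Symbols came from the study's supplementary sheets and named 2103 of 32883 identifiers, mostly genes lower in OLs than in OPCs (1937 of 2060 tested), so lists are partly covered. No authors' comparison columns were used as values.

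Named genes were those of the lists, the 10 higher and 10 lower genes of smallest unadjusted p (symbol, mean of at least 1 CPM, 1 direction in 4 of 4 pairs) and the genes called in OLs. The comparison, the lists and this rule were chosen with earlier results of these data known, and the cell cycle, histone, channel, receptor, matrix and ribosomal families after symbols and leading genes had been seen. Promoters are RefSeq (GRCr8). Intervals cover the spread between these libraries.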

Additional observations from a re-analysis of the deposited data

Results flagged for a closer look

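In 102 groups of 4 libraries, the value of 1 library lay far from the others in 4, by Dixon's ratio at the 95% level, which chance passes in about 1 of 20 groups. Atf4 was at 128 CPM in the DMSO library of replicate 4, below the other 3. Trib3 was at 1.28 CPM in the same library, above the other 3. Gdf15 was at 0.863 CPM in the DTG library of replicate 1, and Txnip at 30.1 CPM in the DTG library of replicate 4.

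The response to DTG differed between OLs and OPCs, by edgeR's interaction test, for Gdf15 (3.10, OL minus OPC, log2), Ifi27l2b (3.03), Eif4ebp1 (2.15), Mthfd2 (1.38), Arpc1b (−1.17), Gjc3 (−1.89) and Txnip (−2.35). The adjusted p values ran from 0.000994 for Gdf15 to 0.0497 for Mthfd2 and Gjc3. These calls fell from 7 to 0 without the replicate block and to 0 without replicate 4. OLs had the longer exposure to DTG, so stage and exposure cannot be told apart.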

How the results depend on the processing

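With ERCC library sizes 3 genes were called in OPCs (Mt-nd2, Mt-nd1 and ENSRNOG00000060162), 31 in OLs and 3 for the stage difference, and 3653 OPC intervals lay within 1 log2 unit of 0. Leaving out each replicate gave 0 to 1 calls in OPCs (Mt-nd1 without replicate 2) and 0 to 4 for the stage difference, 0 without replicate 4. Without the replicate block the calls were 0 in OPCs, 71 in OLs and 0 for the stage difference, and DESeq2 with the block called 60 stage differences. The 889 genes at an unadjusted p under 0.05 became 66 without the replicate block, 63 in DESeq2 without it, 1662 without a filter, 2646 with ERCC library sizes (2645 higher and 1 lower), and 593, 455, 3140 and 127 without replicates 1 to 4. The pairing rests on the labels, and replicate 2 did not deviate together.

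ERCC library sizes moved the median of all genes to 0.45 and these list medians to 0.49 (ISR transcription factors), 0.76 (ISR feedback), 0.68 (amino acid), 1.21 (mitochondrial), 0.79 (NRF2), 0.61 (folate), 0.34 (myelin), 0.48 (growth factor), 0.49 (mitosis), 0.21 (DNA replication), 0.77 (p53), 0.048 (glucose), 0.41 (origin), 0.41 (fork), 0.41 (deoxynucleotide), 0.55 (recombination), 0.57 (centromere), 0.16 (histones), 0.49 (potassium channels), 0.72 (sodium and calcium channels), 0.54 (receptors), 0.44 (matrix) and 0.51 (ribosomal). Leaving out each replicate, the folate median ran from 0.0097 to 0.21. The other list medians moved by less than the SD of the pairs, 340 of 364. That SD includes replicate 2, so it is wide for lists where this litter stood apart. The condensin and cohesin median passed this rule, although it went from 0.34 to −0.03 without replicate 2 (SD 0.74).

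Among 36 named genes recomputed under each alternative, signs reversed with ERCC library sizes for Mcm3 (0.039), Mcm5 (0.025), Nrgn (0.046), Eif4ebp1 (0.44), Mbp (0.12), Pfkl (0.032) and Arrdc4 (0.064), and outside these 36 also for Mcm2, Mcm6 and Sdf2l1. Eif4ebp1 was 0.0019 without the replicate block, and −0.091 to 0.10 when each replicate was left out. Of 504 values for 36 named genes, 494 kept their direction. Many of these 36 came from the ranking, which required a shared direction in every pair. Leaving out a replicate could therefore hardly reverse them, and most other alternatives refit the same libraries. The count of kept directions is thus no independent test of direction. The contrast in the 16-library fit, added after the data were seen, called 0 genes. The causes were not tested. Depth limits genes under 1 CPM most.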
